A study of Mus musculus with 6 samples.

Results

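Neutrophil granule and calgranulin genes were followed in 6 libraries of primary mouse macrophages cultured from bone marrow. The set holds 10 genes listed by symbol, all of which matched an Ensembl gene and passed the filter on low counts, among 13588 genes tested and 55421 genes in the deposited count table. It was split by granule stage into 3 early azurophil genes (Mpo, Elane and Prtn3) and 7 late granule and cytosolic genes (S100a8, S100a9, Lcn2, Camp, Ngp, Ltf and Mmp8). One group comprised 3 libraries of macrophages titled Tmem175flox/flox Lyz2-Cre+/- and given the genotype label Tmem175-/-, and is called knockout here. The title names floxed alleles of Tmem175, a lysosomal potassium and proton channel gene, and Cre recombinase driven from Lyz2. The other group comprised 3 libraries of wild type (WT) macrophages. Lyz2 is active in granulocytes as well as macrophages, and no library carried Cre or floxed alleles alone, so loss of Tmem175 cannot be told apart from effects of Cre or of its insertion. The labels give no strain, age or sex and name no separate animals, so the p-values rest on library-to-library spread, which may be technical.

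Neutrophils fill their granules in sequence as they mature. Azurophil granules are made first, at the promyelocyte stage, and carry myeloperoxidase and serine proteases. Specific granules follow and carry lactoferrin, lipocalin, cathelicidin and collagenase, while the calgranulins accumulate free in the cytosol as a zinc- and calcium-binding heterodimer. Monocytes express calgranulins too, and the azurophil genes are shared with granulocyte and monocyte progenitors, so these transcripts can reach a marrow-derived macrophage culture from more than 1 kind of cell.

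Total counts ranged from 24179548 to 31542741 per library. Tmem175 stood at 12.1 to 14.3 CPM (a gene's count relative to its scaled library total) in knockout and 32.8 to 33.4 CPM in WT libraries. It was lower in knockout, in the direction of the labels, but counts remained, at 0.40 of the WT level. How complete the deletion was could not be read from counts per gene and was not tested. The 14 macrophage markers, among them Adgre1, Csf1r and Cd68, summed to 21332 to 22298 CPM in knockout and 21784 to 22577 CPM in WT libraries, and none of them was called by edgeR, DESeq2's test or limma-voom, with 0 at an unadjusted p under 0.05. The leading principal component (29.3% of the variance) crossed genotype. It placed knockout replicate 1 (2.62) and WT replicates 1 and 2 (19.9 and 17.5) on one side, and knockout replicates 2 and 3 (-17.4 and -13.2) and WT replicate 3 (-9.41) on the other. The labels give no batch for this split.

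The promoters show what the early and the late genes share in sequence, so the bases just before the start are given for the genes whose levels are described below, from RefSeq on GRCm38.p6 and 5′ to 3′ on the gene's own strand. All 10 genes had an entry, and the 250 bases before each start were searched on both strands for cores of 4 factors of granulocyte development: TTGCNNAA for C/EBP, GAGGAA for PU.1, TGTGGT for RUNX and AACGG for MYB. Capitals mark the matches, and no matches overlapped. Distances are from the RefSeq start. This start can differ from the ends of the gene spans given below, which come from GENCODE. For Mpo, Lcn2 and Prtn3, among others, it lies inside that span. For the calgranulin pair and Lcn2, all 250 bases are shown.
S100a8, chr3:90668821-90669070, plus strand: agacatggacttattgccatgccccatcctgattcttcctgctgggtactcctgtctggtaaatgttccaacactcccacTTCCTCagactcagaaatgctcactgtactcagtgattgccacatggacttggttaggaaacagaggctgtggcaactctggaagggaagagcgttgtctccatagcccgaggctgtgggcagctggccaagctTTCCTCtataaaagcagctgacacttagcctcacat
S100a9, chr3:90695722-90695971, minus strand: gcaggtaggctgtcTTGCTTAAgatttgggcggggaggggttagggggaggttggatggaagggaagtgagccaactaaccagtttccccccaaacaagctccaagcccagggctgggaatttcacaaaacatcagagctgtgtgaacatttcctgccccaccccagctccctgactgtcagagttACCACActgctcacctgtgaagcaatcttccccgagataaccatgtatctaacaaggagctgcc
Lcn2, chr2:32387740-32387989, minus strand: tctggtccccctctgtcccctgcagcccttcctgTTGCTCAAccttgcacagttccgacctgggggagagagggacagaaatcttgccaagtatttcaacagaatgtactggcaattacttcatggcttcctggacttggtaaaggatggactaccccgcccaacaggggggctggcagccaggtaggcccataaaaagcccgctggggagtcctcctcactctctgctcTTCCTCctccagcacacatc
For 3 late granule genes, the 150 bases next to the start hold the C/EBP matches.
Ngp, chr9:110419658-110419807, plus strand: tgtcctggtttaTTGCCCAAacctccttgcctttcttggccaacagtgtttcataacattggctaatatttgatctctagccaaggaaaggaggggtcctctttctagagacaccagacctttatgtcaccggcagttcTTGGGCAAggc
Ltf, chr9:111019142-111019291, plus strand: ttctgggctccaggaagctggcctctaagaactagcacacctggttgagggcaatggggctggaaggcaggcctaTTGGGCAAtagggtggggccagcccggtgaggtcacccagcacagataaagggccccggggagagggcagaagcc
Mmp8, chr9:7558279-7558428, plus strand: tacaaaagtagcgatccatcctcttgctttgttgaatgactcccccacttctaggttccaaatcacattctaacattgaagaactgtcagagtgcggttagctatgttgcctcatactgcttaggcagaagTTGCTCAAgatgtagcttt
For the early genes, all 250 bases are shown for Mpo, whose matches lie far from the RefSeq start, and 150 for Elane and Prtn3.
Mpo, chr11:87793534-87793783, plus strand: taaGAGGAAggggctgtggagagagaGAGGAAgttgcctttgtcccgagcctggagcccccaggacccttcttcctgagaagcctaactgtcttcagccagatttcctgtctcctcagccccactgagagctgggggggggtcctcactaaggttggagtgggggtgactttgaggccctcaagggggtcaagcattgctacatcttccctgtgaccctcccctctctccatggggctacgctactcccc
Elane, chr10:79886162-79886311, plus strand: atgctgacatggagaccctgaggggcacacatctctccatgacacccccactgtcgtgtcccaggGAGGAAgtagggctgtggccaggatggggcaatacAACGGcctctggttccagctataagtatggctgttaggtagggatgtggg
Prtn3, chr10:79879517-79879666, plus strand: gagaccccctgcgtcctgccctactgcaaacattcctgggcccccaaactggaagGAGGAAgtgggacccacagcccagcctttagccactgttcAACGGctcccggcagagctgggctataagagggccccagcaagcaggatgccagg

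The C/EBP core lay in 5 of the 7 late promoters (S100a9, Lcn2, Ngp, Ltf and Mmp8) and in 0 of the 3 early ones, against 9.56% of all 32851 promoter windows of this length. Ngp held 2 such matches, at 138 and 11 bases before the start, and Mmp8 held one at 19 bases. The PU.1 core lay in 4 late and all 3 early promoters, against 23.3% of all windows. The MYB core lay in Elane and Prtn3 only among the 10 genes, against 14.5% of all windows. These neighbouring genes resembled each other: the PU.1 match began 85 bases before the start of Elane and 95 before that of Prtn3, and the MYB match 50 and 55 bases before. The RUNX core lay in the window of S100a9 alone among the 10, against 4614 of the 32851 windows, and Camp held no match to any of the 4. A match is a run of letters and does not show binding.

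**Figure D1:**
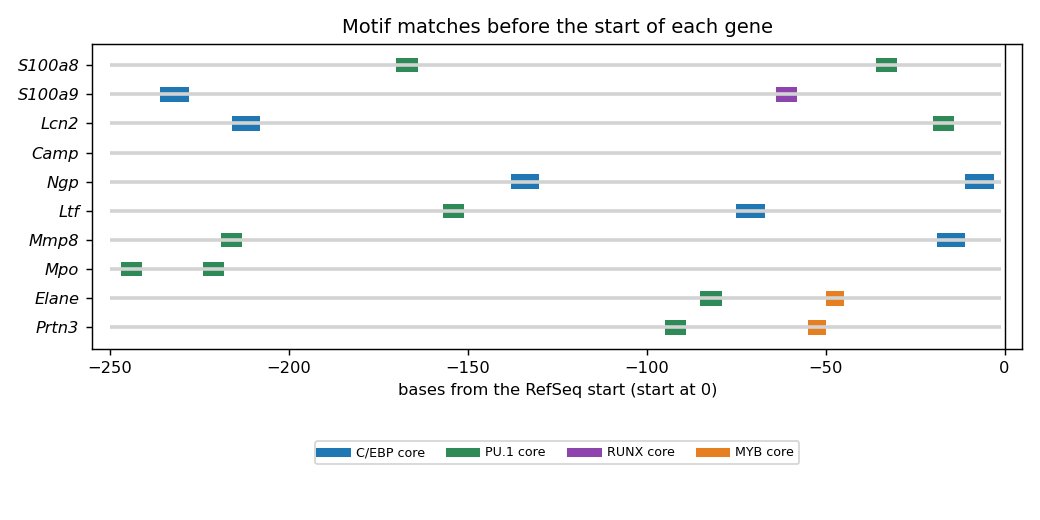
Positions of the matches in the 250 bases before the RefSeq start of each gene (x axis, bases from the start; 1 row per gene). Blue C/EBP matches lie in 5 late genes, and orange MYB matches lie in Elane and Prtn3, at 50 and 55 bases before the start.

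Between the genotypes, the late genes were higher and the early genes lower in knockout libraries in point estimate, and none of the 10 passed the test. All 7 late genes had a positive log2 change (knockout over WT), as had 49.6% of all genes tested, with a median of 0.47, and all 3 early genes a negative one, with a median of -0.44, where the median over all genes tested was -0.00090. In edgeR's quasi-likelihood test adjusted over all genes, 0 of 10 members were called, against 0.103% of all genes tested (0.0147% higher and 0.0883% lower). At an unadjusted p under 0.05, 6 late members were higher, against 2.40% of all genes in that direction, and 1 early member was lower, against 3.04%. The late members are not 7 independent observations, since all 7 had the same lowest and the same highest WT library. The members were also chosen with earlier results of these data known, so these counts are descriptions. DESeq2's Wald test called 3 members higher (S100a8, S100a9 and Lcn2) and 1 lower (Mpo), and limma-voom called 1 (S100a8). Groups did not overlap for 3 higher members, against 5.73% of all genes, and for 1 lower member, against 5.06%. In bulk RNA, fewer cells of a type and less RNA per cell cannot be told apart.

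**Figure D2:**
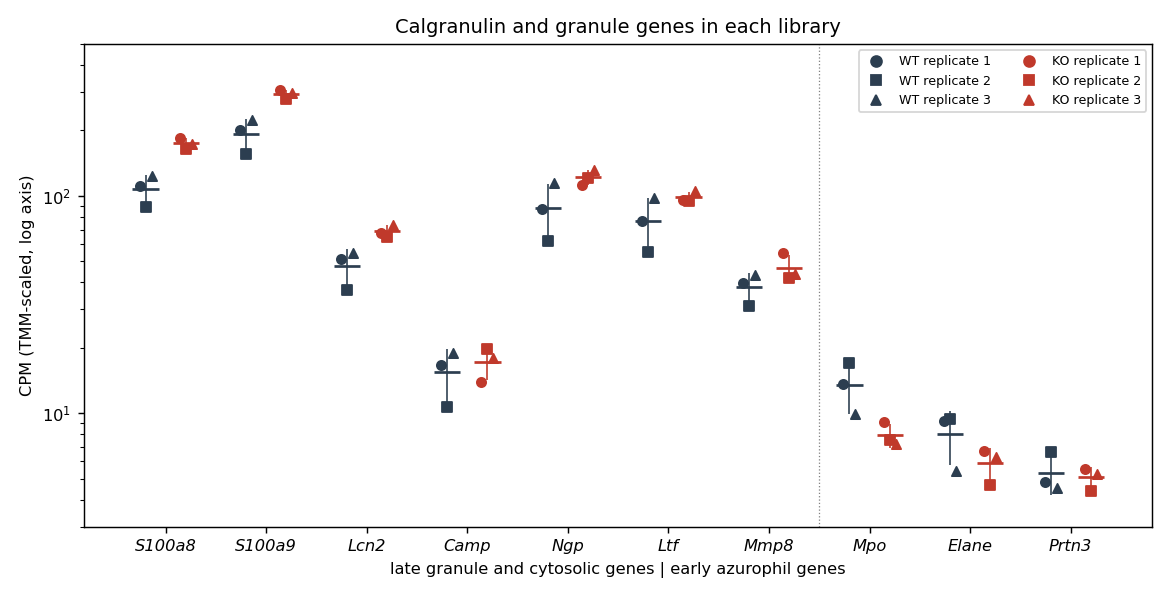
CPM of each of the 10 genes (y axis, log scale) in the 3 WT (dark) and 3 knockout (red) libraries, with symbols for the replicate number, horizontal lines for the mean and vertical lines for 1 SD. For S100a8, S100a9 and Lcn2 all knockout points lie above all WT points, and for Mpo all lie below.

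The calgranulins S100a8 and S100a9 encode the subunits of calprotectin and lie 22597 bases apart on chromosome 3 of GRCm38. S100a8 (ENSMUSG00000056054, 90668978 to 90670035) stood at 184, 165 and 174 CPM in knockout replicates 1 to 3 and at 111, 88.8 and 123 CPM in WT replicates 1 to 3. Every knockout library lay above every WT library, and the WT libraries were spread more widely. Its means were 174 ± 9.49 and 108 ± 17.3 CPM (SD, n = 3 each), a log2 change of 0.70 (SE 0.10) with a 95% interval of 0.47 to 0.92. The adjusted p in edgeR was 0.0521, just above the threshold of 0.05, so it was not called, and S100a8 ranked 15 of the 13588 genes by p. Its call depended on the analysis: it was called in 7 of 16 alternatives, where the smallest adjusted p was 7.36e-15 (no filter) and the largest 0.329 (robust prior).

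S100a9 (ENSMUSG00000056071, 90692632 to 90695721) stood at 306, 279 and 298 CPM in knockout and 200.4, 157 and 223 CPM in WT libraries. The groups again did not overlap, with WT replicate 2 lowest. The log2 change was 0.61 (SE 0.11; edgeR adjusted p = 0.152). Counts of S100a9 were 1.66 to 1.72 times those of S100a8 in knockout and 1.76 to 1.81 times in WT libraries. The pair thus kept nearly the same proportion in all 6 libraries while their levels differed, although the ranges of the genotypes did not overlap. Per exonic length, S100a9 was the most abundant of the 10 genes, at 564 ± 27.0 RPKM (CPM per 1000 exonic bases) in knockout and 370.2 ± 64.6 RPKM in WT libraries (SD, n = 3 each), and ranked 68 among all genes tested. S100a8 followed, at 251 ± 13.7 and 155 ± 25.0 RPKM.

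Lcn2 (chromosome 2, 32384633 to 32388252) encodes lipocalin 2, which binds bacterial siderophores and starves microbes of iron. Levels were 67.7, 64.5 and 73.5 CPM in knockout and 51.5, 36.9 and 54.4 CPM in WT libraries. Groups did not overlap here either, and WT replicate 2 was again lowest. The log2 change was 0.53 (SE 0.12; edgeR adjusted p = 0.446).

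Ngp, Ltf and Camp lie within a stretch of chromosome 9, with gaps of 570130 bases from Camp to Ngp and 596259 bases from Ngp to Ltf. Ngp (110419747 to 110423012) encodes neutrophilic granule protein, a cystatin-like protein of specific granules. It stood at 112, 121 and 132 CPM in knockout and 86.7, 62.1 and 114 CPM in WT libraries. Only WT replicate 3 reached into the knockout range. Ngp had a log2 change of 0.47 (SE 0.17; edgeR adjusted p = 0.881). Ltf (111019271 to 111042767) encodes lactoferrin, the iron-binding protein of specific granules. It stood at 95.6, 94.7 and 105 CPM in knockout and 76.9, 55.0 and 97.6 CPM in WT libraries, with the same overlap through WT replicate 3. Its log2 change was 0.36 (SE 0.16; edgeR adjusted p = 0.908). Ngp and Ltf kept a narrow proportion, with 1.17 to 1.28 counts of Ngp per count of Ltf in knockout and 1.13 to 1.17 in WT libraries. The log2 ratio was higher in every knockout than in every WT library. Knockout replicate 1 (0.2257) and WT replicate 3 (0.2253) were nearly equal.

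Camp (chromosome 9, 109847379 to 109849617), the gene of the antimicrobial cathelicidin, was the late gene with the least difference. Its levels were 13.9, 19.7 and 18.0 CPM in knockout and 16.7, 10.7 and 19.0 CPM in WT libraries. The groups overlapped widely, and knockout replicate 1, high for S100a8, was the lowest knockout library for Camp. The log2 change was 0.15 (SE 0.19), with a 95% interval of -0.29 to 0.58, and without WT replicate 2 it was -0.058. Mmp8 (chromosome 9, 7558456 to 7568485), neutrophil collagenase, stood at 54.4, 41.7 and 43.6 CPM in knockout and 39.6, 31.0 and 43.3 CPM in WT libraries. Knockout replicate 2 lay below WT replicate 3, so these groups overlapped as well. Mmp8 had a log2 change of 0.30 (SE 0.13; edgeR adjusted p = 0.908).

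The late genes had a range of log2 changes, from S100a8 down to Camp. Relative to Mmp8, S100a8 was higher in every knockout library than in any WT library, with a difference in log2 ratio of 0.41, and relative to Camp likewise, with 0.53. Among the 21 pairs of late genes, the log2 ratio separated the genotypes in 8 pairs and overlapped in 13. The pairs reuse the same 7 genes and are not independent, and no share over other gene pairs was computed. These ratios are described without a test.

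**Figure D3:**
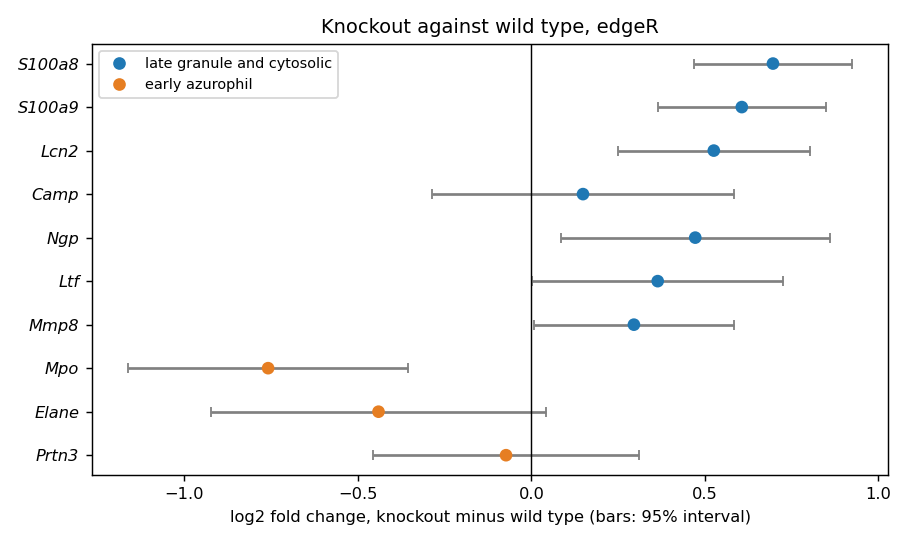
Log2 change of each gene, knockout minus WT, from edgeR (x axis; bars are 95% intervals, unadjusted; blue late genes, orange early genes). The intervals of S100a8, S100a9, Lcn2, Ngp, Ltf, Mmp8 and Mpo leave out 0, those of Camp, Elane and Prtn3 include it, and no gene passed after adjustment.

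The early genes were far lower in level. Mpo (ENSMUSG00000009350, chromosome 11, 87793581 to 87804413) encodes myeloperoxidase, which makes hypochlorous acid. It stood at 9.11, 7.49 and 7.23 CPM in knockout (counts of 287, 225 and 190) and at 13.6, 16.9 and 9.90 CPM in WT libraries (326, 412 and 249). Every knockout library lay below every WT library, with a narrow gap to WT replicate 3. The log2 change was -0.76 (SE 0.18), with a 95% interval of -1.16 to -0.36 and an adjusted p of 0.446 in edgeR, and it ran from -0.94 to -0.56 when 1 library was left out in turn. DESeq2's test gave an adjusted p of 0.00702.

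Elane and Prtn3 encode neutrophil elastase and proteinase 3, serine proteases of azurophil granules, and sit 3073 bases apart on chromosome 10. Elane (79886247 to 79888215) stood at 6.69, 4.69 and 6.28 CPM in knockout and 9.18, 9.41 and 5.41 CPM in WT libraries. WT replicate 3 lay among the knockout libraries, and the log2 change was -0.44 (SE 0.22; edgeR adjusted p = 0.932). Prtn3 (79874476 to 79883174) stood at 5.55, 4.39 and 5.25 CPM in knockout and 4.84, 6.62 and 4.53 CPM in WT libraries, with full overlap. Its log2 change was -0.07 (SE 0.17), with a 95% interval of -0.46 to 0.31, and it turned positive without knockout replicate 2 (0.023) or without WT replicate 2 (0.11). Counts of Elane and Prtn3 ran from 114 to 229 per library, so counting error alone gave a coefficient of variation of 7.16% to 8.76%. Per length the early genes had 2.32 to 5.98 RPKM in knockout and 3.08 to 8.13 RPKM in WT libraries on average, below all late genes, whose averages ran from 15.7 RPKM upward.

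The early and late genes were also set against each other within each library. The mean log2(CPM + 0.5) of the 3 early genes minus that of the 7 late genes was -3.51, -3.84 and -3.73 in knockout replicates 1 to 3 and -2.87, -2.18 and -3.49 in WT replicates 1 to 3. All knockout libraries lay below all WT libraries, but knockout replicate 1 and WT replicate 3 nearly touched. The group means were -3.69 ± 0.166 and -2.85 ± 0.654 (SD, n = 3 each), a difference of -0.85. The size rested partly on WT replicate 2: without it the difference was -0.51, and without WT replicate 3 it was -1.17. Since the genes were chosen, this score is a description and carries no p.

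The late part alone separated the groups with a wider gap between their nearest libraries, at 6.41, 6.39 and 6.47 in knockout and 6.04, 5.60 and 6.25 in WT libraries on the mean log2(CPM + 0.5) scale. The early part did not, at 2.90, 2.56 and 2.74 in knockout and 3.17, 3.42 and 2.76 in WT libraries. Of the 21 pairs of an early with a late gene, the log2 ratio was lower in all knockout than in all WT libraries in 12. It overlapped in 9 pairs. The mean difference ran from -1.41 for Mpo against S100a8 to -0.23 for Prtn3 against Camp. Its negative sign in each pair was fixed by the single genes, since every late change was positive and every early change negative. Each separated pair held Mpo, S100a8, S100a9 or Lcn2, whose own groups did not overlap, so the pairs add no separate evidence. There were 20.2, 22.0 and 24.1 counts of S100a8 per count of Mpo in knockout and 8.15, 5.24 and 12.4 in WT libraries.

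**Figure D4:**
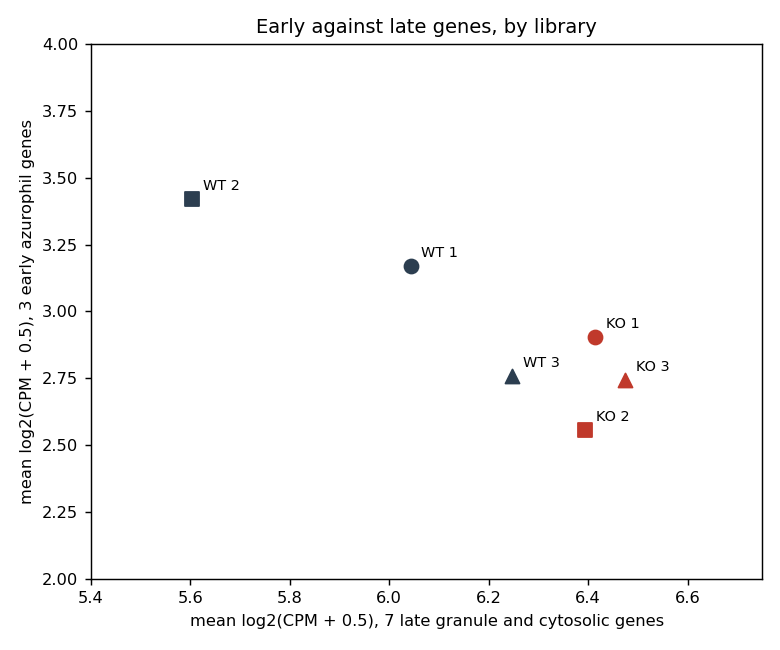
Mean log2(CPM + 0.5) of the 3 early genes (y axis) against that of the 7 late genes (x axis), 1 point per library, knockout in red and WT in dark. WT 2 sits at the upper left (5.60, 3.42), and the 3 knockout libraries sit at the right, between 6.39 and 6.47, with WT 3 (6.25, 2.76) next to them.

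Variation within a group had a pattern of its own. In all 7 late genes WT replicate 2 was the lowest and WT replicate 3 the highest WT library, and in all 3 early genes the order was the reverse. The coefficient of variation was larger in WT than in knockout libraries for all 10 genes: for Ltf it was 27.9% in WT and 5.89% in knockout libraries, and for S100a9 17.4% and 4.79%, where counting error gave 1.08% to 2.31%. Leaving out WT replicate 2 lowered the log2 change of every late gene: that of S100a8 became 0.58, S100a9 0.48, Lcn2 0.37, Ngp 0.28, Ltf 0.17 and Mmp8 0.17. Leaving out WT replicate 3 raised them, to 0.80 for S100a8, which then passed (edgeR adjusted p = 0.0213), and to 0.71 for Ngp, which did not. In knockout libraries replicate 1 was highest for all 3 early genes, while no single knockout library was highest for all late genes.

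The split along the leading component touched the early genes. Knockout replicate 1 and WT replicates 1 and 2 had early means of 2.90 to 3.42, above the 2.56 to 2.76 of the other libraries. For S100a8, S100a9, Lcn2 and Mpo the groups did not overlap over all 6 libraries, so their direction is the same on either side by construction. Of the other members, Ngp, Ltf and Mmp8 were higher and Elane lower in knockout replicate 1 than in WT replicates 1 and 2, while Camp (13.9 against 16.7 and 10.7 CPM) and Prtn3 (5.55 against 4.84 and 6.62 CPM) lay between them. On the side of WT replicate 3, Ngp was higher in both knockout libraries, and for Camp, Ltf, Mmp8, Elane and Prtn3 the WT library lay between the knockout libraries. For Elane the values there were 4.69 and 6.28 CPM in knockout against 5.41 CPM. Each side holds a single library of one genotype, so no test was made within it.

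Other granule genes were taken from lists of their own. Of 26 other genes of specific, gelatinase and ficolin granules, 23 were tested, with 14 positive and 9 negative and a median of 0.04. Of these, edgeR called 1 higher and 1 lower, against 0.0147% and 0.0883% of all genes tested. DESeq2's test called 3 of the list and limma-voom 2. Over all 13588 genes, DESeq2's test called 10 higher and 30 lower, and limma-voom 3 and 12. At an unadjusted p under 0.05 in edgeR, 5 of the list were higher and 2 lower, against 2.40% and 3.04% of all genes. Groups did not overlap in 5 higher and 2 lower genes, against 5.73% and 5.06%. Qpct, which encodes glutaminyl-peptide cyclotransferase, rose to 27.3, 25.5 and 27.8 CPM from 18.0, 18.7 and 20.5 CPM (log2 change 0.49, SE 0.07; edgeR adjusted p = 0.0371). Lyz2, the lysozyme gene that carries Cre, fell by 0.89 on the log2 scale (SE 0.08; edgeR adjusted p = 0.00415). Lyz1, its near-identical neighbour, stood at 180, 77.8 and 81.5 CPM in knockout and 47.3, 43.0 and 41.7 CPM in WT libraries and did not pass (log2 change 1.36, SE 0.28; edgeR adjusted p = 0.303), and reads shared by Lyz1 and Lyz2 cannot be told apart in these counts. Knockout replicate 1 stood apart for Lyz1, and without it the log2 change was 0.86 and passed (edgeR adjusted p = 0.000705). Of the fits that left out 1 library, Lyz2 passed in all 6 and Qpct only without WT replicate 3 (edgeR adjusted p = 0.0448; 0.069 to 0.235 in the other fits). Chil3, a chitinase-like protein, had a log2 change of 0.33 (SE 0.07).

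Of 14 other azurophil and promyelocyte genes, 11 were tested and none was called by edgeR, with 3 positive and 8 negative and a median of -0.14. At an unadjusted p under 0.05, 0 were higher and 2 lower, against 2.40% and 3.04% of all genes tested. The median was -0.024 without knockout replicate 3 and -0.038 without WT replicate 1, and -0.0082 over the 6 genes that averaged at least 10 CPM. The cathepsin C gene Ctsc, whose product activates the granule serine proteases, had a log2 change of -0.15 (SE 0.05), Plac8 of -0.33 (SE 0.13), and Ctsg, the cathepsin G gene, of -0.47 (SE 0.29). Ctsg followed the early genes by library, at 3.01, 1.90 and 1.71 CPM in knockout and 3.55, 3.70 and 1.99 CPM in WT libraries. DESeq2's test and limma-voom also called 0 of these genes. Cd63, a granule membrane tetraspanin, had a log2 change of 0.08 (SE 0.06).

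Mature neutrophil genes had a positive median that was smaller among the more abundant of them. Of 24 listed, 20 were tested and none was called by edgeR, with 17 positive and 3 negative and a median of 0.21. At an unadjusted p under 0.05, 2 were higher and 0 lower, against 2.40% and 3.04% of all genes tested. DESeq2's test and limma-voom called 0. The median was 0.099 without WT replicate 1, 0.37 without WT replicate 3 and 0.062 over the 11 genes that averaged at least 10 CPM. Groups did not overlap in 6 genes that were higher (Wfdc21, G0s2, Stfa2l1, Trem3, Trem1 and Mxd1) and in 0 that were lower, against 5.73% and 5.06% of all genes tested. Of these, Wfdc21, a small whey acidic domain protein gene, averaged 5.63 ± 0.497 CPM in knockout and 3.85 ± 1.21 CPM in WT libraries (SD, n = 3 each), while G0s2, Stfa2l1, Trem3 and Trem1 averaged 0.499 to 1.26 CPM in knockout and 0.285 to 0.884 CPM in WT libraries. Mxd1 averaged 41.4 and 39.9 CPM. The list's summed level was 1627 to 1691 CPM in knockout and 1549 to 1646 CPM in WT libraries. None of the 24 was at 0 in every library, but Ly6g, the defining surface marker of mouse neutrophils, had only 9 to 12 counts per knockout and 2 to 13 per WT library. The G-CSF receptor gene Csf3r stood at 202 to 220 CPM in knockout and 210 to 215 CPM in WT libraries. The part of these other cells in the late genes' difference was not tested.

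Regulators of granulocyte development showed few differences. All 15 were tested and 0 were called by edgeR, DESeq2's test or limma-voom, with 1 higher and 1 lower at an unadjusted p under 0.05 and a median of -0.03. Myb, a factor of immature progenitors, had a log2 change of -0.79 (SE 0.28), at 1.65, 1.27 and 1.79 CPM in knockout and 2.46, 3.82 and 1.87 CPM in WT libraries. Every knockout library lay below every WT library, as in 5.06% of all genes tested, and WT replicate 2 was highest, as for the early genes. Counts of Myb were low, at 38 to 93 per library. Knockout replicate 3 and WT replicate 3 both had 47 counts, so only the scaling set them apart. Cebpe, the factor needed for specific granules, had one of 0.55 (SE 0.24), at 2.51, 3.50 and 2.32 CPM in knockout and 1.67, 1.64 and 2.39 CPM in WT libraries, with overlap through WT replicate 3. Cebpb and Irf8 had log2 changes of -0.25 (SE 0.12) and -0.08 (SE 0.05).

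Other S100 genes were nearly level. Of 14 listed, 7 were tested and 0 were called by edgeR, DESeq2's test or limma-voom, with 6 positive, a median of 0.11 and 1 higher at an unadjusted p under 0.05. S100a11 stood at 92.5 ± 2.50 and 85.9 ± 1.95 CPM in knockout and WT libraries (SD, n = 3 each; log2 change 0.11, SE 0.04). S100a6, the nearest tested protein-coding gene before S100a8 at 44797 bases, had a log2 change of 0.23 (SE 0.10), S100a10 one of 0.13 (SE 0.06) and S100a4 one of 0.41 (SE 0.24). Ptbp1 and Med16, which flank Prtn3 and Elane on chromosome 10, had values of -0.06 (SE 0.04) and -0.05 (SE 0.06); these neighbours were chosen by position after the members' values were seen.

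Receptors, regulators and inhibitors of these proteins, such as the calgranulin receptor Tlr4, had a median of 0.0098 over 17 tested genes of 20 listed, and 0 were called by edgeR, DESeq2's test or limma-voom, with 0 at an unadjusted p under 0.05 in either direction. Serpinb6a, a serpin of leukocytes, had a log2 change of 0.10 (SE 0.05) and Trem1, an amplifying receptor of myeloid cells, of 0.80 (SE 0.40). Serpina3g and Ly96 had values of -0.28 (SE 0.17) and 0.10 (SE 0.07).

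**Figure D5:**
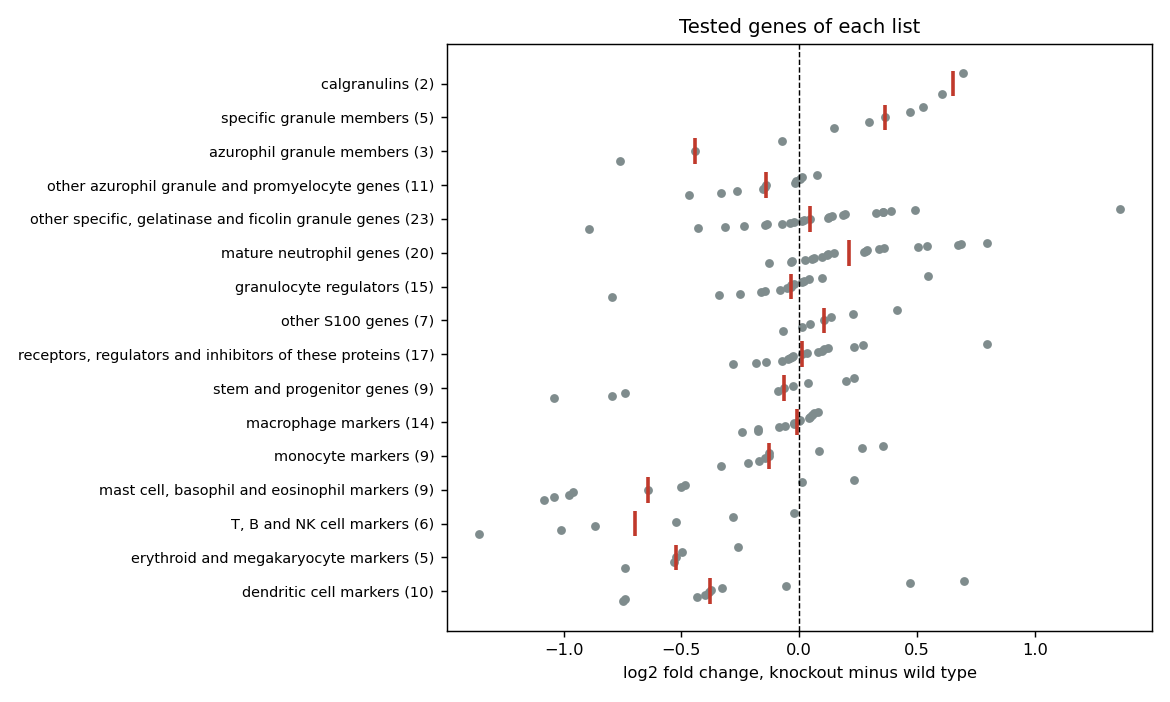
Log2 change, knockout minus WT, of each tested gene (points) in each list (rows, number tested in parentheses), with red bars for the list median and a dashed line for the median of all genes tested. The calgranulin bar lies farthest to the right, and the bars of markers of other marrow cells lie to the left, as the azurophil bar does.

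Markers of several other marrow cells had negative medians, as the early genes had. Mast cell, basophil and eosinophil markers had a median of -0.64 over 9 tested of 12 listed and summed to 33.1 to 54.1 CPM in knockout and 46.5 to 62.1 CPM in WT libraries, with Cma1 the 1 marker at 0 in every library; without knockout replicate 1 the median was -1.15. T, B and NK cell markers had a median of -0.70 over 6 of 10 (81.2 to 113 CPM against 110.1 to 169 CPM), which was -0.26 over all 10 with no filter on low counts. The median of erythroid and megakaryocyte markers was -0.52 over 5 of 9 (99.6 to 149 against 124 to 206 CPM, with Hbb-bs at 0 throughout) and that of dendritic cell markers -0.38 over 10 of 10 (1015 to 1198 against 1238 to 1488 CPM). Stem and progenitor genes had a median of -0.07 over 9 of 10 (128 to 160 against 119 to 169 CPM) and monocyte markers of -0.13 over 9 of 9 (283 to 291 against 290 to 352 CPM), which was 0.057 without WT replicate 3. Most of the T, B and NK sum was Cd4, at 77.8 to 108 CPM in knockout and 104 to 161 CPM in WT libraries. H2-Ab1 made up much of the dendritic cell sum, at 426 to 638 CPM in knockout and 656 to 776 CPM in WT libraries. No member of these 6 lists was called by edgeR or limma-voom, and DESeq2's test called 1, a dendritic cell marker. Over all 13588 genes, DESeq2's test called 10 higher and 30 lower. At an unadjusted p under 0.05 the lists held, in the order given, 5, 4, 4, 5, 3 and 2 lower members, where 3.04% of all genes tested were lower and 2.40% higher at that threshold. Cd177, from the monocyte list and also among the specific and gelatinase granule genes, was the 1 higher member (log2 change 0.36, SE 0.14). Gata2, Flt3 and Kit each count in 2 of these lists, and Kit had a positive log2 change (0.23, SE 0.11). Prss34, a protease gene of the mast cell, basophil and eosinophil list, had a log2 change of -1.08 (SE 0.32). The B cell gene Ms4a1 had one of -1.36 (SE 0.31), the platelet integrin gene Itga2b of -0.53 (SE 0.19) and the progenitor factor gene Gata2 of -1.04 (SE 0.40). Counts per library were low for Ms4a1 (15 to 55) and Gata2 (15 to 57) and larger for Prss34 (77 to 308) and Itga2b (701 to 1323). Whether macrophages or the cells named by these lists made the transcripts was not tested. The part of such cells in the differences of Mpo and Elane was not tested.

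By profile over the 6 libraries, measured as the root mean square difference of centred log2(CPM + 0.5) values, S100a9 lay nearest to S100a8 at 0.0465, then Lcn2 at 0.11 and Ngp at 0.182, whereas Mpo lay at 0.789. Among 9315 protein-coding genes outside the set that averaged 5 CPM or more, the nearest to S100a8 were Qpct (0.166), Cd177 (0.182), Mmp9 (0.207), Dusp4 (0.215) and Ggcx (0.215). Qpct, Cd177 and Mmp9 were also on the list of other specific, gelatinase and ficolin granule genes. Cd177, a neutrophil surface glycoprotein, stood at 19.6, 19.4 and 18.7 CPM in knockout and 15.2, 11.5 and 18.4 CPM in WT libraries. Mmp9, gelatinase B, stood at 52.1, 36.5 and 41.4 CPM and 36.0, 28.6 and 34.6 CPM. Nearest to Mpo were Stab2 (0.150), Treml1 (0.184), Cd5l (0.185), F2rl2 (0.189) and Mmrn1 (0.191), while Elane lay at 0.221 and Prtn3 at 0.351. These profiles share the same 6 libraries and their depths and are given as a description.

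As a share of all counts, the 10 genes together made up 0.0854%, 0.0827% and 0.0873% in knockout and 0.0605%, 0.0470% and 0.0673% in WT libraries. Nearly all of it came from the late genes, at 0.0832% ± 0.00220 in knockout and 0.0556% ± 0.0110 in WT libraries (SD, n = 3 each). The early genes made up 0.00191% ± 0.000212 and 0.00264% ± 0.000676.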

How the data were processed

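RNA sequencing was done on 6 libraries of bone marrow-derived macrophages, 3 labelled Tmem175flox/flox Lyz2-Cre+/- and 3 WT. The deposited values are raw counts per Ensembl gene, which the authors made on GRCm38 using HISAT2 for alignment and featureCounts for counting, according to the submitters' processing notes. For those tools, versions, annotation release and strand setting were not given in the sources used here. Symbols, positions and exonic lengths came from GENCODE M21 (55240 of 55421 IDs matched), and promoter sequences from RefSeq on GRCm38.p6. Counts were scaled by TMM, filtered with filterByExpr (edgeR 4.0.16, R 4.3.3) and tested by edgeR's quasi-likelihood method (two-sided) over 13588 genes, with Benjamini-Hochberg adjustment at 0.05. Standard errors came from the F statistic, and the intervals are not adjusted. RPKM used the scaled library sizes and the union of exons. A pseudocount of 0.5 was used for log2 CPM. The common biological coefficient of variation was 0.0744. No pair of libraries within a group agreed within sampling noise (chi-square over degrees of freedom 3.66 to 17.6).

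Named genes were the 10 members, Tmem175 and Lyz2, up to 4 genes of each list with the smallest p, and the 5 nearest profiles to S100a8 and to Mpo; other names (such as Adgre1, Csf1r, Cd68, Ly6g, Csf3r, Tlr4, S100a4, flanking genes, markers at 0 and mature neutrophil genes whose groups did not overlap) were chosen for their role, position or values after values were seen. The members and the 16 lists were chosen with earlier results of these data known. Alternatives were limma-voom (3.58.1), the Wald test of DESeq2 1.42.0, scaling by library totals, by upper quartiles or by DESeq2 size factors, no filter, a mean of at least 10 CPM, a pseudocount of 0.1, a replicate block and leaving out each library. Bias-corrected dispersions and a robust prior were added after seeing the data.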

Additional observations from a re-analysis of the deposited data

How the results depend on the processing

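Each of the 10 members was refitted under 16 alternatives (15 for Elane and Prtn3, which a mean of at least 10 CPM removed). All late members but Camp stayed positive, and Mpo and Elane stayed negative. When 1 library was left out, Camp ran from -0.058 (without WT replicate 2, reversed) to 0.33, and Prtn3 from -0.18 to 0.11 (without WT replicate 2, reversed), with 0.023 without knockout replicate 2. With 0 members called higher in the main test, 1 was called with library totals, limma-voom and bias-corrected dispersions, 3 with the DESeq2 Wald test and 6 with no filter, and 0 to 1 when 1 library was left out. With 0 called lower, 1 was called with the DESeq2 Wald test and with no filter, and 0 to 0 when 1 library was left out. S100a8 was the member called without WT replicate 3 (adjusted p = 0.0213, edgeR). Over all genes, 2 were higher and 12 lower in the main test, 39 and 112 with no filter, 10 and 30 with DESeq2 and 0 and 5 among genes averaging 10 CPM or more. The cause of these shifts was not tested. The difference between early and late genes ran from -1.17 to -0.51 when 1 library was left out and from -0.87 to -0.85 under other scalings and pseudocounts.

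The labels do not say whether the replicate numbers pair the samples. Deviations of same-numbered libraries correlated across genes at 0.0570, -0.123 and 0.0388 for replicates 1 to 3. Libraries with different numbers ran from -0.168 to 0.143. These values gave no sign of pairing, but with 3 libraries per group they cannot exclude it. With the replicate block, 2 members were called higher, S100a8 (adjusted p = 0.0114, edgeR) and S100a9 (0.0297), and 0 lower, and 3 genes were higher and 14 lower over all. Depth limits the early genes most, with 114 to 412 counts per library.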
